A study of Homo sapiens with 192 samples.

Results

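HT29 and HCT116, both established colorectal cancer (CRC) cell lines, were compared in 2D growth, and the genes that were on in one line and silent in the other were described. The comparison used 6 of the 24 libraries of the series, 3 of HT29 and 3 of HCT116, each sequenced as 8 technical replicates whose counts were summed. A gene was called on in a line when it reached 1 CPM (counts scaled to a common library size with the TMM factors of edgeR) in each of the 3 libraries, and silent when no library held more than 3 counts. By these limits 358 genes were on in HT29 and silent in HCT116 (2.80% of the 12806 genes on in HT29), and 602 were on in HCT116 and silent in HT29 (4.51% of 13343), while 11767 genes were on in both lines. The 2D values chose these genes, so they are given without a test, and tests are given for the 6 libraries of the same lines grown in 3D, which had no part in the choice. The fit behind these tests took its spread from all 24 libraries, so the 2D values enter that spread.

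All libraries were made from cell line cultures by strand-specific poly(A) RNA sequencing, and nothing in the labels says whether the 3 libraries of a line came from separate cultures, so p-values measure the spread between these libraries, which may be technical. In the study HT29 and LS513 stand for microsatellite stable tumors, HCT116 and LS174T for instable ones. HCT116 was grown in McCoy medium and the other lines in DMEM, both with serum and antibiotics, so line and medium cannot be told apart. Each line stands for 1 tumor, and the compared lines also differ in much besides microsatellite state.

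In the colon, stem cells at the base of the crypt divide under Wnt signals, and their daughters mature into absorptive colonocytes, with a brush border and ion transporters, or into goblet cells, which secrete mucins and trefoil factors. Colon cancer lines retain this program to different degrees. Whether a gene is on depends on the transcription factors of the cell and on the state of its promoter. Promoters rich in the dinucleotide CpG serve many housekeeping and developmental genes and can be shut in tumors by DNA methylation, while CpG-poor promoters serve many genes of mature tissues.

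The 6 libraries held 18723942 to 31925024 counts, with the lowest total in HT29 replicate 3, and 3 counts stand for 0.0940 to 0.160 CPM before scaling. The highest of these levels was that of HT29 replicate 3, so the silent limit was loosest there. Without that library 371 genes were on in HT29 and silent in HCT116, and 617 the reverse. EPCAM, CDH1, KRT8, KRT18 and KRT19, markers of epithelium, were on in both lines. VIL1 and CDH17, markers of intestinal epithelium, were not: VIL1 (villin, of the brush border) had 108, 131 and 119.9 CPM in HT29 and 0.151, 0.230 and 0.289 CPM in HCT116, and CDH17 was silent in HCT116. Markers of fibroblasts, endothelium, leukocytes, smooth muscle and glia summed to 8.22 to 9.70 CPM in HT29 libraries and 15.1 to 18.5 CPM in HCT116 libraries, with 9 of the 22 markers at 0 in each line. Over all 19387 tested genes, 3667 (18.9%) were called higher in HT29 and 4177 (21.5%) higher in HCT116 in 2D, where a call needed an adjusted p under 0.05 and a change over 1 on the log2 scale. The 2 sets of on and silent genes stood along the axes of the plot of mean levels.

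**Figure D1:**
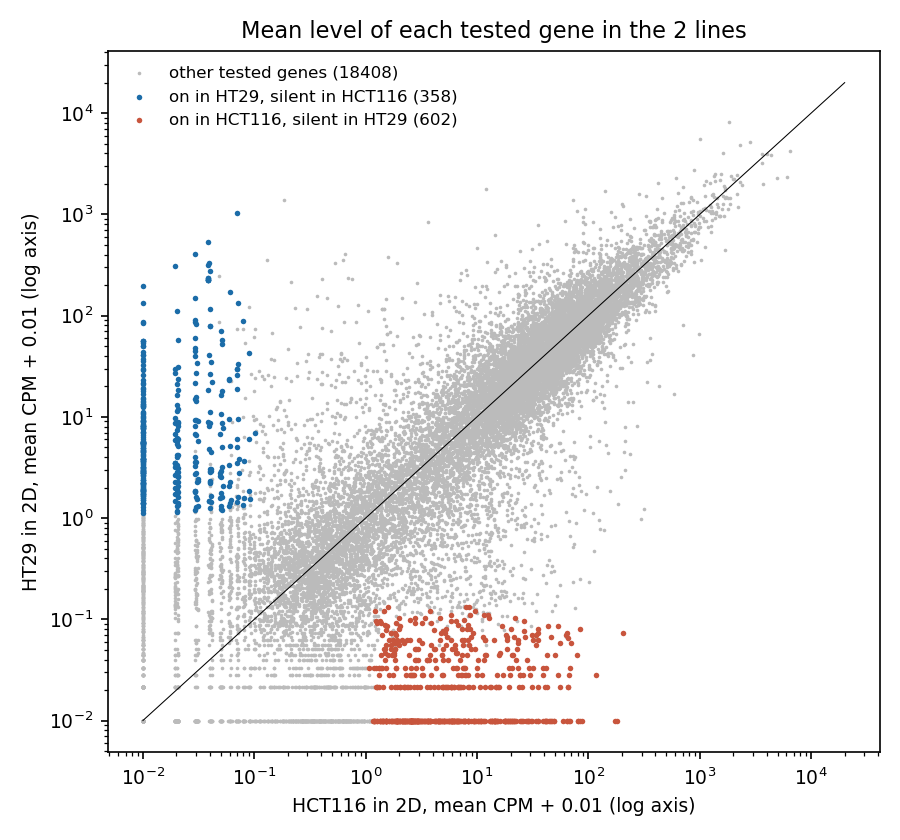
Mean CPM in HT29 (vertical) against HCT116 (horizontal) in 2D for each tested gene, on log axes with 0.01 CPM added. The 358 genes on in HT29 and silent in HCT116 (blue) lie against the vertical axis, the 602 genes on in HCT116 and silent in HT29 (red) along the horizontal axis, and other genes (grey) about the line of equal level.

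The number of CpG at the gene starts is described for both sets at the end, and 4 upstream sequences are shown to make it visible, 1 from each of 4 functional groups that the results turn on. They are the 250 bases before the start of MUC13 (a transmembrane mucin) and FOXQ1 (an epithelial transcription factor), both on in HT29, and of COL12A1 (a fibril-associated collagen) and MSX1 (a homeobox factor), both on in HCT116. The sequences are those of RefSeq on GRCh38.p14, written 5′ to 3′ on the strand of the gene, with each CpG in capitals, and no GENCODE 29 exon lies in them, although a longer MUC13 transcript starts further upstream.
MUC13, chr3:124934752-124935001, minus strand, 5 CpG: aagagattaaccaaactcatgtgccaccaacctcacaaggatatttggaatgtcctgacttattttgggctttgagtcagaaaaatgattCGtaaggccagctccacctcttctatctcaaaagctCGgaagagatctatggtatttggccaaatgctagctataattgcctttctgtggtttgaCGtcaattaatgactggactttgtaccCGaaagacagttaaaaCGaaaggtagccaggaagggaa
FOXQ1, chr6:1311848-1312097, plus strand, 29 CpG: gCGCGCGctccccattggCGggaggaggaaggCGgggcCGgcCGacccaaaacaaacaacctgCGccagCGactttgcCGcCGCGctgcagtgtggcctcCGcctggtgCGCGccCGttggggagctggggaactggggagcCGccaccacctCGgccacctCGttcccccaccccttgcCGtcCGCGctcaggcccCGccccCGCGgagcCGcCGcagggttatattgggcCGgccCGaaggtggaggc
COL12A1, chr6:75206054-75206303, minus strand, 21 CpG: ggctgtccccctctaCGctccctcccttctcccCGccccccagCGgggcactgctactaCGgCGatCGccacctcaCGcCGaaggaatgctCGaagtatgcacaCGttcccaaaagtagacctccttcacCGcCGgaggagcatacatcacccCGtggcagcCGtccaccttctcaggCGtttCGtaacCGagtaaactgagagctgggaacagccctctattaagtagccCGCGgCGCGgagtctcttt
MSX1, chr4:4859415-4859664, plus strand, 24 CpG: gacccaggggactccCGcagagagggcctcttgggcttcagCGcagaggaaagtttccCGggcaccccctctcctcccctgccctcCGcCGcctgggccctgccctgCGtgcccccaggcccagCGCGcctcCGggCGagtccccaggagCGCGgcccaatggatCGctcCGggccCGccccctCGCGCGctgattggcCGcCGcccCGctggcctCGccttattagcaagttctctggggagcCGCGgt
Over the 27305 promoters of the same table, the median was 11 CpG in 250 bases and 32.1% held 20 or more, so MUC13 lay below the median and the other 3 in the CpG-rich part. CG was counted on 1 strand, since it reads the same on both. Counts were made by gene, so the data do not say from which start the RNA came.

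Among the 358 genes on in HT29 and silent in HCT116, 288 were protein coding, 27 were long intergenic and 14 antisense RNAs, and 29 were of other types. In 167 of them no HCT116 library held a count. Their mean level in HT29 ran from 1.12 to 1041 CPM with a median of 4.95 CPM, and 106 of them reached 10 CPM. The functional groups below were assembled by hand after the genes were known and carry no test. They hold only a part of each set, and most genes of both sets are in no group. A fold against a line with 0 counts is a lower bound computed against 3 counts in each library, and with 1 to 9 counts in all the ratio of the pooled CPM is given with an exact interval that covers counting error only.

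GPX2, a glutathione peroxidase of the gut epithelium (chr14:64939152-64942905, minus strand), had the most reads of all these genes. Its HT29 libraries held 1064, 1119.8 and 938 CPM and its HCT116 libraries 2, 3 and 1 counts, a ratio of 17419.8 (95% exact interval 8003 to 47469). ALDH1A1, which makes retinoic acid from retinal (chr9:72900662-73080442, minus strand), had 573, 372 and 657 CPM in HT29 and 0, 3 and 0 counts in HCT116. TM4SF1 and TM4SF4, neighbouring tetraspan membrane protein genes on chromosome 3, were both on in HT29 and silent in HCT116. The former had 390.2, 446 and 374 CPM and 0, 2 and 0 counts in HCT116, the latter 240.4, 418 and 260.1 CPM and 0, 1 and 0 counts. TRIM31, an E3 ubiquitin ligase of the intestine (chr6:30102897-30113106, minus strand), had 351, 351 and 298 CPM against 1, 2 and 0 counts. IGFBP4, which binds insulin-like growth factors, was even at 206, 179.5 and 203 CPM against 0 counts in each library, at least 2037-fold higher. In none of them did any library of one line come near those of the other, which the rule itself fixed. In bulk RNA, fewer cells that express a gene and less RNA per cell cannot be told apart. In 3D, GPX2 had 1626 ± 138 CPM in HT29 against 0.0767 ± 0.0821 CPM in HCT116 (SD, n = 3, edgeR adjusted p = 3.3e-20), and TM4SF1 had 444 ± 28.5 CPM in HT29 against 0.562 ± 0.216 CPM in HCT116 (SD, n = 3, edgeR adjusted p = 7.1e-21).

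Surface and secreted proteins of the stomach and intestine formed the largest of the groups in the HT29 set, with 26 genes. They were led in reads by CEACAM6, TSPAN8 and CEACAM5. CEACAM6, a glycoprotein anchored to the apical membrane (chr19:41750977-41772208, plus strand), had 189, 395 and 238 CPM in HT29 and 0, 2 and 1 counts in HCT116, and replicate 2 was the highest. CEACAM5, the carcinoembryonic antigen of clinical use (chr19:41708585-41729798, plus strand), had 55.2, 112 and 79.98 CPM and 2, 0 and 0 counts in HCT116. It shares 16% of its exonic bases with another annotated gene, so a part of its reads cannot be assigned. CEACAM7, of mature colonocytes, had 3.09, 1.72 and 3.45 CPM in 2D against 0 counts in each library, and in 3D 72.4 ± 9.86 CPM in HT29 against 0 in each HCT116 library (SD, n = 3, edgeR adjusted p = 5.2e-14). TSPAN8, a tetraspanin (138, 129 and 131 CPM against 0, 3 and 3 counts), stood beside LGR5, described below.

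Genes of the brush border were also on in HT29. CDHR5, a protocadherin that links the tips of microvilli, had 8.98, 10.05 and 7.18 CPM in HT29 and 0, 1 and 0 counts in HCT116. MYO7B, the motor of the same complex, had 2.4, 1.41 and 2.08 CPM and 1, 0 and 0 counts. CDH17, the liver-intestine cadherin, had 3.74, 6.4 and 2.52 CPM and 0, 0 and 1 counts, and PHGR1, a small protein of the intestinal epithelium, had 26.5, 21.5 and 32.7 CPM and 0, 1 and 1 counts. In 3D CDHR5 was at 21.5 ± 1.42 CPM in HT29 against 0 in each HCT116 library (SD, n = 3, edgeR adjusted p = 8.9e-16) and PHGR1 at 112 ± 12.1 CPM in HT29 against 0.0111 ± 0.0193 CPM in HCT116 (SD, n = 3, edgeR adjusted p = 4.1e-17). TMPRSS2, a serine protease of the cell surface, and CTSE, an aspartic protease of the gut, also belonged to the group.

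The group also held mucins, trefoil peptides and genes that serve mucus-secreting cells, not all of them particular to goblet cells of the colon. MUC13 had 19.2, 19.2 and 26 CPM in HT29 and 0 counts in each library in HCT116, at least 223-fold higher. MUC5AC, a gel-forming mucin, had 4.36, 5.54 and 5.81 CPM, and TFF1 and TFF2, trefoil peptides secreted with mucins, had 10.4, 12.2 and 6.46 CPM and 6.31, 3.85 and 5.15 CPM, all with 0 counts in HCT116. CREB3L1, a transcription factor of secretory cells, had 23.5, 25.6 and 28.8 CPM against 2, 3 and 1 counts, and ST6GALNAC1, which adds sialic acid to mucins, had 2.13, 1.34 and 1.92 CPM against 0 counts in each library. In 3D all but TFF1 were on in HT29, and TFF1 had 1.04 ± 0.138 CPM in HT29 against 0 in each HCT116 library (SD, n = 3, edgeR adjusted p = 7.3e-06). CREB3L1 was at 65.4 ± 16.3 CPM in HT29 against 0.143 ± 0.0837 CPM in HCT116 (SD, n = 3, edgeR adjusted p = 1.5e-17), above the silent limit in HCT116. Of the whole surface and secreted group, 25 of the 26 were on in HT29 in 3D and 19 silent in HCT116 in 3D, and 22 were on in LS513 and 20 in LS174T in 2D.

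Epithelial transcription factors counted 8 genes. FOXQ1 had the most reads, with 165, 159 and 186 CPM in HT29 and 2, 2 and 1 counts in HCT116, and its 3D levels were 136 ± 27.5 CPM in HT29 against 0.220 ± 0.0354 CPM in HCT116 (SD, n = 3, edgeR adjusted p = 3.4e-20). FOXA2, a factor of endoderm and secretory cells, had 2.4, 4.03 and 2.36 CPM, and ASCL2, the Wnt-driven factor of crypt stem cells, had 1.13, 1.1 and 2.3 CPM, both against 0 counts in HCT116. HOXD13, a homeobox factor of the hindgut, had 2.06, 1.45 and 2.74 CPM against 0, 0 and 1 counts. FOXA2 and ASCL2 were on in LS513 and LS174T as well, ASCL2 with 166 ± 4.78 CPM and 111 ± 7.72 CPM (SD, n = 3), while HOXD13 was silent in both.

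LGR5, the R-spondin receptor that marks crypt stem cells, had 14.1, 7.95 and 11 CPM in HT29 and 1, 1 and 1 counts in HCT116, and in 3D 8.3 ± 1.71 CPM in HT29 against 0 in each HCT116 library (SD, n = 3, edgeR adjusted p = 1.6e-12). Its 5′ end overlaps that of the annotated TSPAN8 gene on the other strand, and the sources used here do not name the strand setting of the counter. LGR6, its relative, had 115, 61 and 62.9 CPM against 3, 0 and 0 counts, with replicate 1 above the other two. LGR5 was also on in LS513 (13 ± 0.126 CPM) and LS174T (32.1 ± 2.97 CPM, SD, n = 3).

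Genes of ion and solute transport were on in HT29 with few or no counts in HCT116. CFTR, the chloride channel of the crypt, had 47.5, 26.7 and 47.8 CPM against 0 counts in each library, and in 3D 110.0 ± 13.7 CPM in HT29 against 0.0109 ± 0.0189 CPM in HCT116 (SD, n = 3, edgeR adjusted p = 1.6e-17). SLC26A9, an anion transporter, had 29.2, 25.5 and 23.7 CPM, and KCNE3, the potassium channel subunit of the basolateral membrane, had 18, 20.5 and 24.1 CPM, both against 0 counts. AQP5, a water channel, had 48.7, 39 and 46.4 CPM against 1, 1 and 0 counts. CFTR was on in all lines but HCT116, whereas SLC26A9 was on in HT29 alone and silent in LS513 and LS174T.

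Receptors for metabolites and other ligands formed a further group of 9 genes, and the 3 hydroxycarboxylic acid receptor genes, which lie side by side on chromosome 12 (chr12:122701293-122730843), were all among them. HCAR1, the lactate receptor, had 142, 121 and 136 CPM, at least 1384-fold higher. HCAR2, which binds niacin and ketone bodies, had 5.01, 4.09 and 5.75 CPM, and HCAR3 had 2.47, 2.1 and 1.92 CPM. None of the 3 had a count in HCT116 in 2D, and all were silent in LS513 and LS174T. In 3D, HCAR1 had 122 ± 20.2 CPM in HT29 against 0.0111 ± 0.0192 CPM in HCT116 (SD, n = 3, edgeR adjusted p = 8.2e-16). FFAR4, a receptor of long-chain fatty acids, had 95.3, 95.8 and 83 CPM against 1, 1 and 0 counts, and CHRM3, a muscarinic receptor, had 7.54, 7.95 and 8.82 CPM against 0 counts in each library. The HCAR2 and HCAR3 genes are near-identical copies, so the split of reads between them is uncertain.

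GPX2, ALDH1A1 and 6 UGT1A genes were among the 12 protein-coding genes with the most reads in the HT29 set. The 8 UGT1A genes in the set, which attach glucuronic acid to drugs and bilirubin, share their last exons (chr2:233617645-233773310) and cannot be fully told apart by reads. UGT1A10, the highest of them, had 352, 255 and 331 CPM in HT29 and 0, 3 and 0 counts in HCT116, and the other 7 had means between 225 and 235 CPM. CYP3A5, a cytochrome P450 of drug metabolism, had 88.8, 80.4 and 67.9 CPM against 0, 2 and 1 counts. AKR1C2, an aldo-keto reductase with near-identical relatives, had 56.2, 37.5 and 63.6 CPM against 3, 0 and 1 counts, and CBR1, a carbonyl reductase, had 52.4, 54 and 54.4 CPM against 0 counts in each library. CES1, a carboxylesterase, was low at 1.65, 1.48 and 2.85 CPM against 0 counts in each library. In 3D the enzymes stayed apart, with UGT1A10 at 319 ± 20.2 CPM in HT29 against 0.0327 ± 0.0566 CPM in HCT116 (SD, n = 3, edgeR adjusted p = 5.1e-20) and CBR1 at 59.1 ± 5.86 CPM in HT29 against 0.0111 ± 0.0192 CPM in HCT116 (SD, n = 3, edgeR adjusted p = 1.7e-18). Of the 23 genes of the group, 21 were on in HT29 in 3D and 19 silent in HCT116 in 3D, and 17 were on in LS513 and 14 in LS174T in 2D.

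Among enzymes of intermediary metabolism, NNT, the mitochondrial transhydrogenase that makes NADPH, was even across the HT29 libraries at 83.2, 81.1 and 87.7 CPM and had 0 counts in each library in HCT116, at least 873-fold higher. It was on in LS513 (65.3 ± 1.25 CPM) and LS174T (106 ± 3.84 CPM, SD, n = 3), and had no count in HCT116 in 3D either, with 73.1 ± 10.2 CPM in HT29 against 0 in each HCT116 library (SD, n = 3, edgeR adjusted p = 1.3e-17). ACSS1, the mitochondrial acetyl-CoA synthetase, had 59.2, 52.2 and 55.1 CPM against 0 counts in each library, and FBP1, an enzyme of gluconeogenesis, had 61.6, 48 and 63.8 CPM against 0, 0 and 1 counts. TXNIP, which binds thioredoxin and limits glucose uptake, had 27.2, 34.4 and 24.5 CPM against 0 counts in each library in 2D and 122 ± 52 CPM in HT29 against 0.0218 ± 0.0377 CPM in HCT116 (SD, n = 3, edgeR adjusted p = 8.7e-16) in 3D. For these 4 genes the lowest HT29 library in 2D was the TXNIP value of replicate 3 and no HCT116 library held more than 1 count.

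Innate immune genes were the last group formed in the HT29 set. CGAS, the sensor of cytosolic DNA, had 16.6, 20.3 and 17.9 CPM in HT29 and 0, 3 and 0 counts in HCT116, and 0 counts in LS513 and LS174T in 2D. TLR4, the endotoxin receptor, had 14.9, 10.05 and 14.3 CPM, PYCARD, the inflammasome adaptor, 12.3, 7.88 and 13 CPM, and RIPK3, the kinase of necroptosis, 5.45, 5.68 and 6.9 CPM, all against 0 counts in HCT116. These last 3 genes were on in all lines but HCT116. In 3D PYCARD had 35 ± 2.97 CPM in HT29 against 0.0109 ± 0.0189 CPM in HCT116 (SD, n = 3, edgeR adjusted p = 7.4e-15) and RIPK3 13.4 ± 1.39 CPM in HT29 against 0 in each HCT116 library (SD, n = 3, edgeR adjusted p = 8.4e-16). CD74, the invariant chain of HLA class II, had 2.98, 2.92 and 2.79 CPM against 0, 1 and 2 counts, and MAGEA12, a cancer-testis gene of the X chromosome, had 32.9, 33 and 38.7 CPM against 0, 1 and 2 counts. ITGB6, an epithelial integrin chain, had 31.9, 30.6 and 29.97 CPM against 0, 0 and 1 counts and was the only integrin of this set.

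Of the 602 genes on in HCT116 and silent in HT29, 531 were protein coding, 22 were long intergenic and 11 antisense RNAs, and 38 were of other types. No HT29 library held a count in 309 of them. Mean levels ran from 1.06 to 204 CPM with a median of 4.99 CPM. The count of genes at 100 CPM or more was 4, against 21 in the HT29 set, of which 8 were the UGT1A genes. The plot of the 12 genes with the most reads in each set shows that range.

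**Figure D2:**
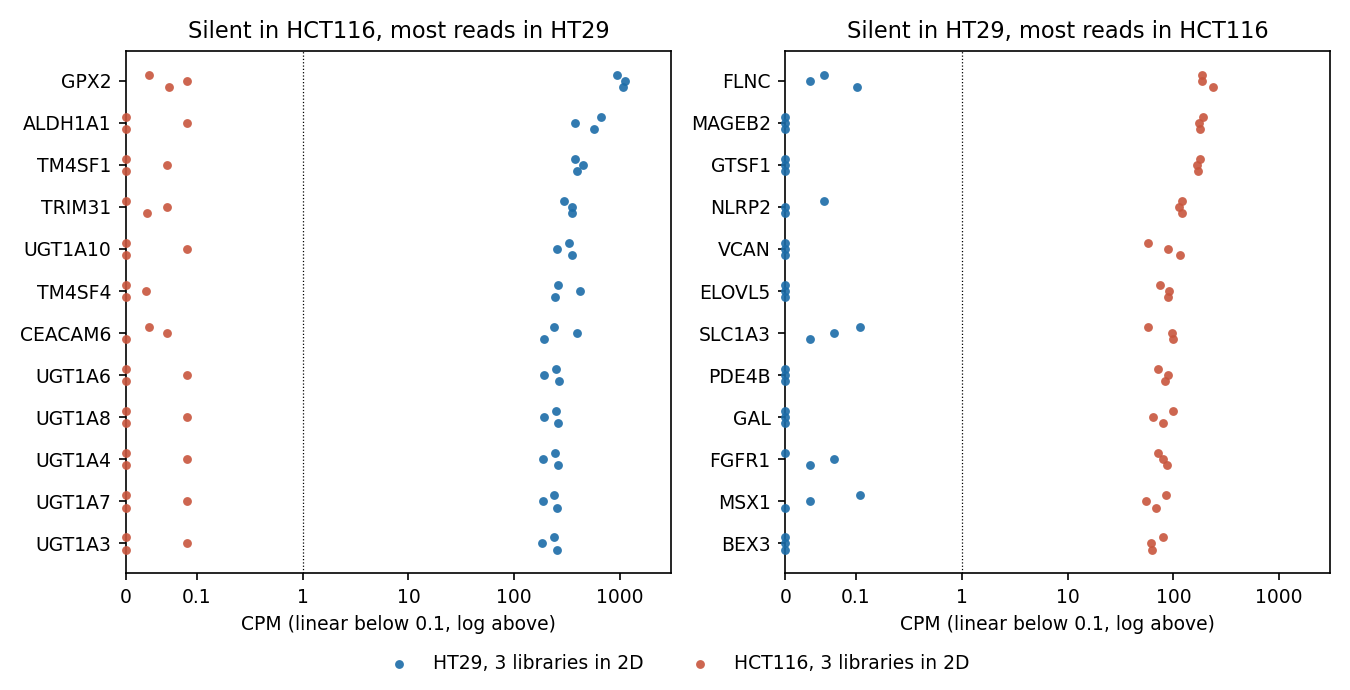
CPM of the 12 protein-coding genes with the most reads in each set, on an axis that is linear below 0.1 and logarithmic above, with a point for each of the 3 libraries of HT29 (blue) and of HCT116 (red) and a dotted line at 1 CPM. The genes on in HT29 reach 1041 CPM on average for GPX2 and the genes on in HCT116 204 CPM for FLNC, and every library of the silent line lies far left of the dotted line.

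FLNC, filamin C, an actin crosslinker known from muscle (chr7:128830377-128859274, plus strand), had the most reads in HCT116, with 238, 186 and 186 CPM there and 3, 1 and 1 counts in HT29, a ratio of 3114 (95% exact interval 1334 to 9592). In 3D it had 193 ± 23.3 CPM in HCT116 against 0.0694 ± 0.0393 CPM in HT29 (SD, n = 3, edgeR adjusted p = 5.7e-20). ELOVL5, a fatty acid elongase (chr6:53267398-53349179, minus strand), had 88.3, 91.3 and 74.6 CPM against 0 counts in each library and was on in all lines but HT29. PDE4B, which breaks down cAMP, had 84.1, 88.3 and 71.8 CPM against 0 counts in each library. BEX3, an adaptor of the nerve growth factor receptor on chromosome X, had 62.6, 61.7 and 79.2 CPM against 0 counts in each library, and it had no count in LS513 and LS174T in 2D.

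Matrix and matrix adhesion genes numbered 27. VCAN, the proteoglycan versican (chr5:83471465-83582303, plus strand), had 115, 89.1 and 57.2 CPM in HCT116 and 0 counts in each library in HT29, and its HCT116 replicate 1 was the highest. Of the 19 collagen chain genes on in either line, 7 (36.8%) were on in HCT116 and silent in HT29 and 0 the reverse, beside 4.16% and 2.25% of all protein-coding genes on in either line. By the calls the family went both ways, with 5 of 23 tested genes higher in HT29 and 14 higher in HCT116. The 5 higher in HT29 were COL17A1, COL16A1, COL9A3, COL4A2 and COL28A1. COL28A1 was near the floor, with 0.206, 0.103 and 0.110 CPM in HT29. So was COL5A1, called higher in HCT116 with 0.0302, 0.0575 and 0.128 CPM there. COL17A1, of the hemidesmosome, had 326, 425 and 238 CPM in HT29 and 2.08, 1.29 and 2.31 CPM in HCT116, log2 fold change 7.45 ± 0.28 (SE, n = 3 a line, edgeR adjusted p = 7.8e-17). COL6A2, of the beaded collagen VI, had 62.9, 58.4 and 71.2 CPM, and COL12A1 had 64.6, 48.7 and 34.3 CPM, both against 0 counts in HT29. The collagen IV chains of the basement membrane came in 2 pairs of genes that lie head to head: COL4A3 (2.02, 3.51 and 2.21 CPM) with COL4A4 (7.19, 8.83 and 5.45 CPM), and COL4A5 (10.7, 12.7 and 10.7 CPM) with COL4A6 (2.27, 2.07 and 1.8 CPM). All 4 had 0 counts in HT29 in 2D and were silent in LS513 and LS174T. COL9A2 had 2.36, 2.73 and 2.86 CPM against 0 counts in each library.

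LAMA4 and LAMC3, laminin chains, had 17.2, 13.8 and 12 CPM and 11.8, 11.7 and 12.1 CPM with 0 counts in HT29, and they were 2 (20%) of the 10 laminin genes on in either line, with 0 the reverse. Of 11 laminin genes tested, 3 were called higher in HT29 (LAMA3, LAMA5 and LAMB3) and 4 higher in HCT116 (LAMA1, LAMA2, LAMA4 and LAMC3). LAMA1 was near the floor, with 0.0906, 0.115 and 0.0321 CPM in HCT116. LAMA3, of epithelial basement membranes, had 57.8, 91.8 and 55.3 CPM in HT29 and 13.2, 12.4 and 9.75 CPM in HCT116, log2 fold change 2.53 ± 0.17 (SE, n = 3 a line, edgeR adjusted p = 2.6e-12). ITGA5, the fibronectin receptor chain, had 64.8, 64.1 and 67.1 CPM against 0, 1 and 0 counts, and in 3D 119.8 ± 9.23 CPM in HCT116 against 0 in each HT29 library (SD, n = 3, edgeR adjusted p = 1.5e-18). Of 19 integrin genes tested, 10 were called higher in HT29 and 4 higher in HCT116. ITGA6, a laminin receptor chain, had 519, 585 and 495 CPM in HT29 and 95.8, 92.3 and 79.3 CPM in HCT116, log2 fold change 2.58 ± 0.17 (SE, n = 3 a line, edgeR adjusted p = 3.6e-12). FERMT2, which activates integrins, had 31.6, 36.7 and 33.9 CPM against 1, 1 and 2 counts, and TIMP3, an inhibitor of matrix proteases, had 5.77, 7.16 and 6.83 CPM against 0 counts in each library. LOXL2, which crosslinks collagen, had 19.6, 18.1 and 17.8 CPM against 3, 2 and 0 counts in 2D and 133 ± 40.3 CPM in HCT116 against 0.112 ± 0.0388 CPM in HT29 (SD, n = 3, edgeR adjusted p = 7.9e-19) in 3D. Of this group, 27 of the 27 were on in HCT116 in 3D and 22 silent in HT29 in 3D, and 3 were on in LS513 and 5 in LS174T in 2D.

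Germline genes were 10 of the set, and 3 of them were among the 12 genes with the most reads. MAGEB2, a cancer-testis gene (chrX:30215560-30220089, plus strand), had 177, 174 and 190.4 CPM in HCT116 and 0 counts in each library in HT29, at least 1099-fold higher. GTSF1, which acts in transposon silencing in germ cells (chr12:54455950-54473602, minus strand), had 170.5, 166 and 178 CPM, at least 1044-fold higher. NLRP2, of the oocyte and early embryo, had 119, 112 and 121 CPM against 0, 0 and 1 counts, PRAME, a cancer-testis gene, 37.6, 39 and 46.6 CPM against 0 counts in each library, and M1AP, of meiosis, 40.6, 42.9 and 39.5 CPM against 0 counts in each library. None of the 10 was on in LS513, and 2 were on in LS174T, among them GTSF1 with 63 ± 1.93 CPM (SD, n = 3). In 3D MAGEB2 had 187 ± 16.5 CPM in HCT116 against 0 in each HT29 library (SD, n = 3, edgeR adjusted p = 7.5e-14). No germline group was formed for the HT29 set, although MAGEA12, the cancer-testis gene described above, belonged to it.

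Genes known from nerve and other excitable cells formed the largest group of the HCT116 set, with 32. The HT29 set held such genes too, without a group of their own. CACNG4, a calcium channel subunit, had a mean of 85.5 CPM in HT29 and 0.0197 CPM in HCT116 in 2D. GABRA3, a GABA receptor chain, had means of 3.98 CPM in HT29 and 0.0197 CPM in HCT116. SYT1, the calcium sensor of synaptic vesicles, had 39.6, 44.3 and 34.4 CPM in HCT116 and 2, 0 and 0 counts in HT29. GAL, the neuropeptide galanin (chr11:68683779-68691175, plus strand), had 79.4, 63.5 and 98.9 CPM against 0 counts in each library, and SLC1A3, a glutamate transporter (chr5:36606355-36688334, plus strand), had 98.4, 97 and 57.5 CPM against 1, 2 and 2 counts. MAP1B and L1CAM, of growing axons, had 16.8, 16.7 and 9.69 CPM and 9.67, 7.79 and 10.4 CPM, and HTR7, a serotonin receptor, 37.4, 36.6 and 32.5 CPM. HCT116 replicate 3 was the lowest for SLC1A3 and MAP1B and the highest for GAL and L1CAM. Of the group, 32 of the 32 were on in HCT116 in 3D and 25 silent in HT29 in 3D, and 3 were on in LS513 and 8 in LS174T in 2D, and SYT1 had 44.7 ± 4.35 CPM in HCT116 against 0 in each HT29 library (SD, n = 3, edgeR adjusted p = 9.0e-16) in 3D.

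Developmental transcription factors numbered 29, and 21 of them had no count in HT29. MSX1 (chr4:4859666-4863936, plus strand) had 68.4, 54.9 and 84.9 CPM in HCT116 and 0, 1 and 2 counts in HT29, and RUNX3, a Runt factor, had 43.6, 41.8 and 42.5 CPM against 1, 2 and 0 counts. ZIC2, of the early forebrain, had 19.4, 18.6 and 20.2 CPM against 0 counts in each library, and it was on in LS513 and LS174T too. PAX2 and PAX6, of the kidney and the eye, had 6.1, 6.61 and 8.09 CPM and 1.63, 2.27 and 2.47 CPM, TWIST1, of mesenchyme, 2.42, 2.93 and 3.27 CPM, and EOMES, a T-box factor, 5.13, 4.72 and 5.2 CPM, all with 0 counts in HT29. HOXD8 had 4.89, 4.57 and 7.06 CPM against 1, 0 and 1 counts. HOXD8 and HOXD13, of the same cluster, were thus on in opposite lines. Of the group, 27 of the 29 were on in HCT116 in 3D and 28 silent in HT29 in 3D, and 2 were on in LS513 and 7 in LS174T in 2D.

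Growth factors and receptors contributed 21 genes. FGFR1, a fibroblast growth factor receptor, had 86.9, 79.4 and 71.2 CPM in HCT116 and 1, 2 and 0 counts in HT29, and its ligand FGF2 had 23.2, 25.2 and 16.6 CPM against 0 counts in each library. OSMR and LIFR, receptor chains for cytokines of the interleukin 6 family, had 52.2, 55.4 and 42.3 CPM and 14.7, 18.3 and 11.8 CPM. ROR2, a receptor of Wnt ligands, had 28.7, 29.1 and 27.8 CPM against 0 counts in each library, and WNT16, a Wnt ligand, 52.8, 42.7 and 42.6 CPM against 3, 2 and 0 counts. SMO, the transducer of Hedgehog signals, had 22.9, 24.6 and 25.2 CPM against 0 counts in each library, and EPHA4, an ephrin receptor, 4.53, 5.55 and 4.33 CPM against 0 counts in each library. SMO, ROR2 and FGF2 were silent in LS513 and LS174T. In 3D FGFR1 had 63.8 ± 9.01 CPM in HCT116 against 0.293 ± 0.0454 CPM in HT29 (SD, n = 3, edgeR adjusted p = 3.3e-17), above the silent limit in HT29, and FGF2 had 11 ± 2.16 CPM in HCT116 against 0.0121 ± 0.0209 CPM in HT29 (SD, n = 3, edgeR adjusted p = 2.0e-11).

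In the TGF-beta and BMP pathway, ID3, a target of BMP signals that blocks helix-loop-helix factors (chr1:23557918-23559794, minus strand), had 46.3, 42.4 and 70.9 CPM in HCT116 and 3, 2 and 1 counts in HT29. It was on in LS513 and LS174T, with 66.9 ± 12 CPM and 183 ± 42.5 CPM (SD, n = 3), so HT29 was the line apart. SMAD9, a BMP effector, had 2.51, 2.88 and 2.76 CPM against 0, 0 and 1 counts, BAMBI, a decoy receptor, 4.83, 4.6 and 5.23 CPM against 0, 1 and 0 counts, and BMP6, a ligand, 2.24, 2.01 and 2.79 CPM against 1, 0 and 0 counts. ACVR1C, a type I receptor, lay close to both limits with 1.27, 1.35 and 1.09 CPM against 3, 3 and 1 counts. Of the group, 4 of the 5 were on in HCT116 in 3D and 2 silent in HT29 in 3D, and 2 were on in LS513 and 3 in LS174T in 2D.

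Purinergic receptors, the subject of the study, held 3 genes on in HCT116 and silent in HT29 and none of the reverse. P2RX5, an ATP-gated channel, had 17.2, 15.9 and 17.5 CPM in HCT116 and 3, 2 and 1 counts in HT29, a ratio of 215 (95% exact interval 98.3 to 585). It shares 42% of its exonic bases with another gene, so some of its reads cannot be assigned. P2RX7, the ATP-gated channel of inflammatory cell death, was near the limit at 1.33, 2.36 and 1.96 CPM against 0, 2 and 0 counts, and ADORA1, the adenosine A1 receptor, had 6.01, 5.58 and 8.12 CPM against 2, 0 and 0 counts. In 3D P2RX5 had 15.8 ± 0.711 CPM in HCT116 against 0.0121 ± 0.0209 CPM in HT29 (SD, n = 3, edgeR adjusted p = 3.1e-16), P2RX7 1.87 ± 0.165 CPM in HCT116 against 0.0101 ± 0.0174 CPM in HT29 (SD, n = 3, edgeR adjusted p = 3.6e-09) and ADORA1 5.81 ± 0.417 CPM in HCT116 against 0.0653 ± 0.0273 CPM in HT29 (SD, n = 3, edgeR adjusted p = 1.2e-12). P2RX7 was silent in LS513 and LS174T, and P2RX5 was on in LS174T with 12.8 ± 1.39 CPM (SD, n = 3).

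HLTF, a remodeler that acts on stalled replication forks (chr3:149030127-149086554, minus strand), had 64.5, 77.8 and 60.1 CPM in HCT116 and 0 counts in each library in HT29, at least 410.4-fold higher, and in 3D 56 ± 0.980 CPM in HCT116 against 0.0221 ± 0.0194 CPM in HT29 (SD, n = 3, edgeR adjusted p = 4.8e-18). BNIP3, a mitophagy receptor, had 23.4, 20.9 and 26 CPM against 0, 2 and 0 counts, and was on in LS174T and silent in LS513. CD40, of the tumor necrosis factor receptor family, had 19.1, 19.4 and 22.2 CPM against 0 counts in each library, GSDME, a pore-forming gasdermin, 2.08, 2.56 and 2.73 CPM against 0 counts in each library, and NLRP1, an inflammasome sensor, 3.02, 4.31 and 3.37 CPM against 0, 1 and 1 counts. CDIP1 and TNFRSF10C, targets of p53, had 9.73, 9.98 and 10.6 CPM and 4.05, 3.97 and 3.47 CPM against 0, 2 and 0 counts and 3, 1 and 2 counts, although TNFRSF10C shares 39% of its exonic bases. HLA-DRB1, an HLA class II chain, had 1.39, 1.21 and 2.92 CPM against 0 counts in each library, so class II genes were on in both directions, with CD74 in HT29. Of the 13 genes of cell death, sensing and growth restraint, 13 were on in HCT116 in 3D and 10 silent in HT29 in 3D, and 4 were on in LS513 and 6 in LS174T in 2D.

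Genes annotated as protein-coding made up 288 of the HT29 set and 531 of the HCT116 set. Of the others, the 3 with the most reads in each set are named here, chosen after their values were seen. IGFL2-AS1, a long non-coding RNA, had 45.7, 44.4 and 33.1 CPM in HT29 and 1, 2 and 0 counts in HCT116. LINC00667 had 19, 19 and 19.4 CPM against 0 counts in each library, and PCED1B-AS1 16.7, 12.3 and 16.7 CPM against 0 counts in each library. MIR100HG, the host of a microRNA cluster, had 17.7, 18.7 and 18.8 CPM in HCT116 and 0, 2 and 1 counts in HT29. LINC00839 had 13.1, 13.8 and 16.4 CPM against 0 counts in each library, and ANKRD19P, a pseudogene, 10.6, 16.8 and 8.12 CPM against 2, 1 and 1 counts. Of 154 ZNF genes of chromosome 19 on in either line, a family of zinc finger genes of which many repress transcription, 8 (5.19%) were in the HT29 set and 5 (3.25%) in the HCT116 set. Of 206 ZNF genes of other chromosomes, 10 (4.85%) and 3 (1.46%) were, beside 2.25% and 4.16% of all protein-coding genes. The calls were 54 higher in HT29 and 36 higher in HCT116 of 204 tested on chromosome 19, and 29 and 30 of 216 on the others.

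Some genes of the set cannot be separated from their neighbours. The 15 protocadherin alpha genes (chr5:140786136-141012347) share their last exons, and their means of 2.54 to 5.09 CPM in HCT116, with 0 counts in HT29, cannot be read as separate signals. HBE1 and HBG2, globins of the embryo and fetus, had 18, 20.4 and 26.9 CPM and 12, 11.1 and 11.9 CPM, and share 90% and 57% of their exonic bases with other annotated genes of the locus. In all, 44 genes of the HT29 set and 52 of the HCT116 set shared over 10% of their exonic bases with a gene of the same strand.

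Runs of neighbours were sought among protein-coding genes alone, so genes of other types may lie between them. Without sharing exons on the same strand, genes of a set came in 5 runs of 3 in the HT29 set and in 2 runs in the HCT116 set. The HT29 runs were SLC26A9, RAB7B and CTSE on chromosome 1, TH, ASCL2 and C11orf21 on chromosome 11, and on chromosome 12 PTPRR, TSPAN8 and LGR5, the HCAR genes, and the zinc finger genes ZNF140, ZNF891 and ZNF10. The HCT116 runs were LPAR3, MCOLN2, WDR63 and MCOLN3 on chromosome 1 (chr1:84811602-85133138) and FBXO17, FBXO27 and ACP7 on chromosome 19 (chr19:38941401-39111493). A run of CEACAM7, CEACAM5, AC243967.1 and CEACAM6 (chr19:41673307-41772208) held 2 genes that share exons, and the runs around UGT1A, LY75 with CD302, the protocadherins and KHDC1 consisted of genes that share exons.

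The limits of the sets are a choice. Just inside the on limit in HT29 were CRB2 and SPACA4, with lowest libraries of 1.03 and 1.04 CPM, and just outside it RARRES3 and LINC01977, both with 0.998 CPM in the lowest library. In HCT116, FAM166B and AC020907.2 were just inside with 1.01 CPM each, and ADAMTS10 and GPM6A just outside with 0.997 CPM each. UGT1A1, at a mean of 246 CPM in HT29, and CD109, at 75.9 CPM in HCT116, each had 4 counts in the highest library of the other line and so missed the silent limit by 1 count. A further 135 genes on in HT29 and 282 on in HCT116 had 4 to 10 counts at most in the other line.

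The state in 3D growth, in libraries that had no part in the choice, was checked next. Of the 358 genes, 324 were on in HT29 in 3D, 286 were silent in HCT116 in 3D and 257 were both. Of the 602 genes, 577 were on in HCT116, 467 silent in HT29 and 447 both. For comparison, 97.7% of all genes on in HT29 in 2D and 98.3% of all genes on in HCT116 were on in the same line in 3D. Among genes with a count in the series, 92.4% of those silent in HCT116 in 2D and 90.5% of those silent in HT29 were silent there in 3D. The shares of the members, 90.5% and 95.8% on and 79.9% and 77.6% silent, were lower, and the difference was not tested. Most of the comparison genes were on in both lines (11767 genes) or silent in both (14821). The rule kept such genes out of the sets, so the shares are not like for like and nothing is read from their difference. None was silent in 3D in the line where it was on in 2D.

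By the edgeR test in 3D, all 358 genes were called higher in HT29, where 18.2% of all tested genes were called in that direction, and all 602 were called higher in HCT116, where 22% of all tested genes were. The 3D libraries of the lines did not overlap for 358 of 358 and 601 of 602 genes, against 32.9% and 37.9% of all tested genes. The 1 gene that overlapped was PPFIA4, named here for that reason after its values were seen. In the test of the difference between the 2D and the 3D contrast, 12 of the 358 genes (3.35%) and 28 of the 602 (4.65%) passed, beside 7.76% of all tested genes, but the 2D values that chose the genes enter that test and nothing is read from it.

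Only 1 gene of each set was on in 3D in the line where it had been silent in 2D. GBP2, an interferon-induced GTPase, went from 1, 2 and 0 counts in HCT116 in 2D to 2.98 ± 1.85 CPM in 3D, when HT29 had 23.5 ± 2.84 CPM (SD, n = 3). PPFIA4, a liprin, went from 0, 3 and 1 counts in HT29 in 2D to 1.92 ± 0.242 CPM in 3D, overlapping the HCT116 libraries at 3.86 ± 2.21 CPM (SD, n = 3). The bars of states in the other cultures show how few genes changed this far.

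**Figure D3:**
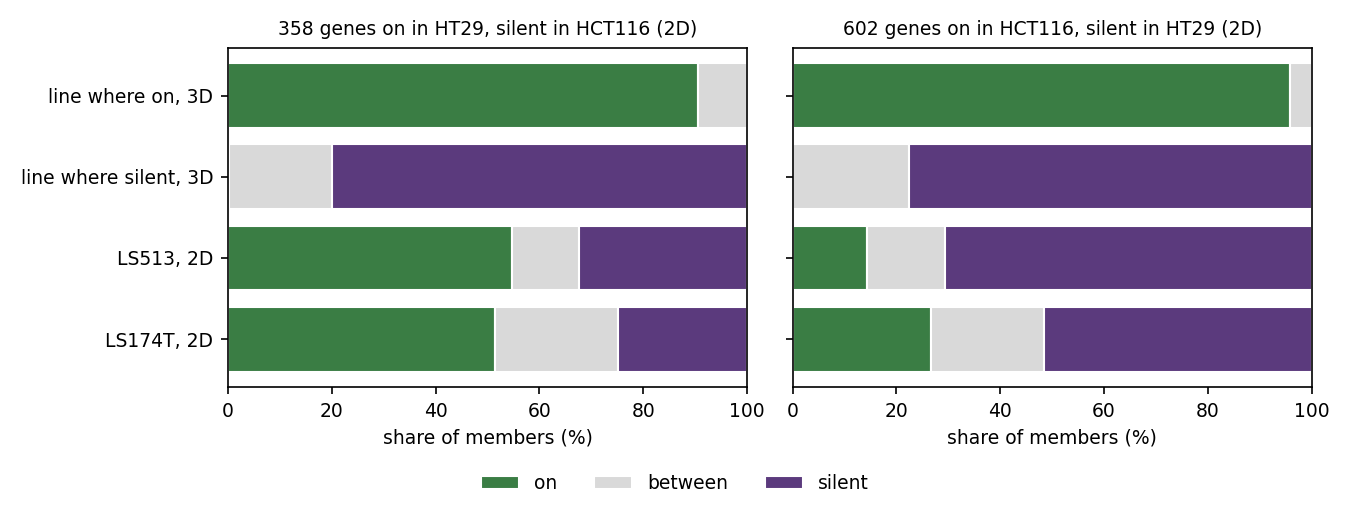
Share of the 358 genes on in HT29 (left) and the 602 genes on in HCT116 (right) that were on (green), silent (purple) or between the limits (grey) in the same line in 3D, in the other line in 3D, and in LS513 and LS174T in 2D. In the line where they were silent in 2D, 1 gene of each set was on in 3D, and 54.7% and 14.3% of the sets were on in LS513.

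The sets were then followed in the other lines of the series. Of the 358 genes on in HT29, 196 (54.7%) were on in LS513 and 184 (51.4%) in LS174T in 2D, and 58 were silent in both. Of the 602 genes on in HCT116, 86 (14.3%) were on in LS513 and 161 (26.7%) in LS174T, and 262 (43.5%) were silent in both. Among all genes on in HT29, 92.6% were on in LS513 and 92.5% in LS174T, and among all genes on in HCT116, 87.8% and 89.3%. Most of these comparison genes were on in both HT29 and HCT116 (11767 genes), which the rule kept out of the sets. A lower share among the members thus follows in part from the rule. These shares are descriptions over 1 line each and were not tested.

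Gene lists written for this comparison placed the sets among other genes of the same pathways. The counts give genes called higher in HT29 and higher in HCT116 of those tested, where 18.9% and 21.5% of all tested genes were called, and medians are log2 fold changes of HT29 over HCT116, where the median over all tested genes was -0.03. Where genes had 0 counts in all libraries of a line, a second median holds them at their bound. The lists were chosen with earlier results of these data known and have no test of their own. The bars of calls by list show the counts.

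**Figure D4:**
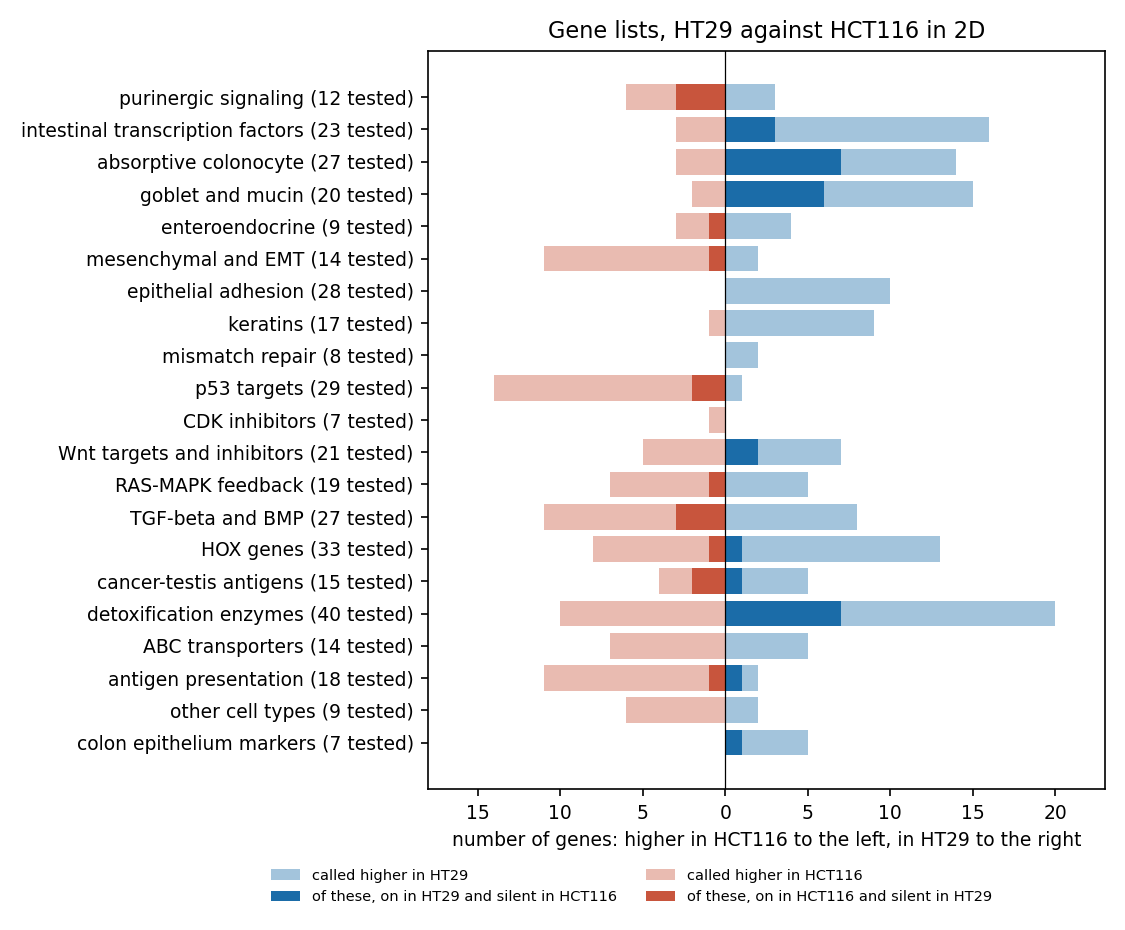
Number of genes of each list called higher in HT29 (blue, to the right) and in HCT116 (red, to the left) in 2D, with the genes on in one line and silent in the other in full colour and the number tested in brackets. The goblet and mucin list has 15 calls toward HT29 and 2 toward HCT116, and the p53 target list 1 and 14.

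The goblet and mucin list had 15 of 20 genes called higher in HT29 and 2 higher in HCT116, with a median of 5.24 (3.85 with bounds). The 2 were MUC4, a mucin, and FCGBP, a protein of mucus. Their log2 fold changes were -4.46 ± 0.33 and -3.10 ± 0.42 (SE, n = 3 a line, edgeR adjusted p = 2.6e-11 and 8.0e-07). AGR2, a goblet cell chaperone, had 83.3, 91.8 and 84 CPM in HT29 and 0, 4 and 0 counts in HCT116, a ratio of 2148 (95% exact interval 838 to 7885, edgeR adjusted p = 4.0e-17). The absorptive colonocyte list had 14 and 3 of 27, with a median of 2.88 (1.13 with bounds). LGALS4, a galectin of the gut, was higher in HT29 with log2 fold change 11.46 ± 0.29 (SE, n = 3 a line, edgeR adjusted p = 1.2e-19), and CA2, a carbonic anhydrase, was higher in HCT116 with log2 fold change -5.52 ± 0.20 (SE, n = 3 a line, edgeR adjusted p = 4.3e-16). Keratins had 9 and 1 of 17 (median 2.06, 0.91 with bounds), among them KRT20, of mature colonocytes, with 379, 512 and 327 CPM against 0.604, 0.661 and 0.674 CPM. Epithelial adhesion genes had 10 and 0 of 28 (median 0.71), with CLDN1, a tight junction claudin, at 9.57, 7.36 and 11.8 CPM in HT29 and 2, 2 and 5 counts in HCT116, a ratio of 102 (95% exact interval 53.4 to 224, edgeR adjusted p = 6.4e-15).

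Of 23 intestinal transcription factors tested, 16 were called higher in HT29 and 3 higher in HCT116 (median 1.83). CDX2, a master factor of the intestine, went the other way, with 1.68, 0.963 and 1.64 CPM in HT29 and 18.6, 17.9 and 20.9 CPM in HCT116, log2 fold change -3.76 ± 0.16 (SE, n = 3 a line, edgeR adjusted p = 9.7e-16). Enteroendocrine genes had 4 and 3 of 9 (median 0). The 4 toward HT29 were NEUROG3, INSM1, SST and PAX4, which had 0 to 14 counts in an HT29 library and 0 in HCT116. The count toward HT29 was 0 with the 6 2D libraries alone and without HCT116 replicate 1 or 2, and 1 without HT29 replicate 2 or HCT116 replicate 3. HOX genes had 13 and 8 of 33 (median 0.65), and Wnt targets and inhibitors 7 and 5 of 21 (median 0). EPHB2 and NKD1, both Wnt targets, were higher in HCT116, in contrast to ASCL2 and LGR5, with log2 fold changes of -4.66 ± 0.21 and -6.36 ± 0.30 (SE, n = 3 a line, edgeR adjusted p = 1.6e-15 and 5.5e-15). The list of colon epithelium markers had 5 and 0 of 7 (median 2.25).

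Mesenchymal genes had 2 calls toward HT29 and 11 toward HCT116 of 14 (median -2.63, -2.50 with bounds). Of the 20 genes on the list, 1 (TWIST1) was on in HCT116 and silent in HT29, and 6 were silent in both. VIM, vimentin, had means of 0.144 CPM in HT29 and 0.855 CPM in HCT116. SNAI2, a transcription factor, had 0 and 0.329 CPM, so neither gene was on in either line. CAV1, caveolin, had 477, 447 and 381 CPM in HCT116 and 21.4, 28 and 11 CPM in HT29, log2 fold change -4.42 ± 0.23 (SE, n = 3 a line, edgeR adjusted p = 4.4e-14), while TGFBI, a matrix protein, was higher in HT29 with log2 fold change 7.17 ± 0.22 (SE, n = 3 a line, edgeR adjusted p = 2.2e-18). Markers of other cell types had 2 and 6 of 9 (median -2.52, -1.92 with bounds, and 3 in place of 6 with the 6 2D libraries alone), with COL1A1, a fibroblast collagen, at 13, 14.4 and 14.8 CPM in HCT116 and 0.892, 0.929 and 1.1 CPM in HT29. COL1A2, COL3A1, DCN and LUM, which define fibroblasts, were silent in both lines, and the part of these markers in the matrix genes was not tested.

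Of 29 p53 targets, 1 was called higher in HT29 and 14 higher in HCT116 (median -0.99). CDKN1A, the inhibitor p21, had 5.52, 6.81 and 4.82 CPM in HT29 and 208, 219.9 and 211 CPM in HCT116, log2 fold change -5.20 ± 0.31 (SE, n = 3 a line, edgeR adjusted p = 1.3e-12). CDK inhibitors other than CDKN1A had 0 and 1 of 7 (median 0.28). Among 8 mismatch repair genes, 2 were called higher in HT29 and 0 higher in HCT116 (median -0.12). MSH3, which recognises loops of unpaired bases, had 30.9, 28 and 33.7 CPM against 4.29, 4.03 and 3.4 CPM, log2 fold change 2.98 ± 0.13 (SE, n = 3 a line, edgeR adjusted p = 1.4e-15). It was on in HCT116 and so was not among the silent genes.

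Detoxification enzymes had 20 and 10 of 40 (median 1.89, 0.98 with bounds), with ALDH1A3 higher in HCT116, opposite to its relative ALDH1A1, at 932, 807 and 870.5 CPM against 43.9, 35.5 and 43.1 CPM in HT29. ABC transporters had 5 and 7 of 14 (median -0.81), with ABCC3 and ABCC2, exporters of drug conjugates, in opposite directions, at log2 fold changes of 5.55 ± 0.19 and -7.02 ± 0.25 (SE, n = 3 a line, edgeR adjusted p = 2.4e-17 and 3.0e-17). Antigen presentation genes had 2 and 11 of 18 (median -2.21, -1.75 with bounds), with NLRC5, the class I transactivator, at log2 fold change -6.11 ± 0.26 (SE, n = 3 a line, edgeR adjusted p = 8.0e-16). TGF-beta and BMP genes had 8 and 11 of 27 (median -0.53), RAS-MAPK feedback genes 5 and 7 of 19 (median -0.27), and cancer-testis antigens 5 and 4 of 15 (median 0), the count toward HT29 being 2 with the 6 2D libraries alone. SMAD6, BMP2 and SMAD7 were among the 8 TGF-beta and BMP genes higher in HT29. Their log2 fold changes were 4.03 ± 0.15, 3.90 ± 0.32 and 2.32 ± 0.16 (SE, n = 3 a line, edgeR adjusted p = 7.7e-17, 1.6e-10 and 6.4e-12).

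Purinergic genes had 3 calls toward HT29 and 6 toward HCT116 of 12 tested (median -0.82). P2RY2, a nucleotide receptor that raises calcium, had 31.4, 44.2 and 36.4 CPM in HT29 and 5.1, 5.44 and 5.2 CPM in HCT116, log2 fold change 2.83 ± 0.15 (SE, n = 3 a line, edgeR adjusted p = 3.9e-14). NT5E (CD73), which makes adenosine from AMP, had 79.5, 98.8 and 68.4 CPM and 31.9, 28.8 and 35.5 CPM, log2 fold change 1.36 ± 0.16 (SE, n = 3 a line, edgeR adjusted p = 5.7e-08). Of the 22 genes on the list, 8 were silent in both lines.

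The rule did not use CpG content, and the sets had unlike medians of it. In the first 300 bases of 1 GENCODE 29 transcript for each protein-coding gene, the median was 10 CpG (quartiles 6 and 22) over the 288 genes on in HT29 and 26 (quartiles 14 and 34) over the 531 genes on in HCT116. Genes on in both lines had a median of 23, genes silent in both a median of 8, and all protein-coding genes a median of 18. The share with 15 or more CpG was 36.8% in the HT29 set and 72.5% in the HCT116 set. Without genes that share exons, the medians were 11 and 26. These are descriptions over genes, which are not independent replicates of the lines, and methylation was not measured.

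**Figure D5:**
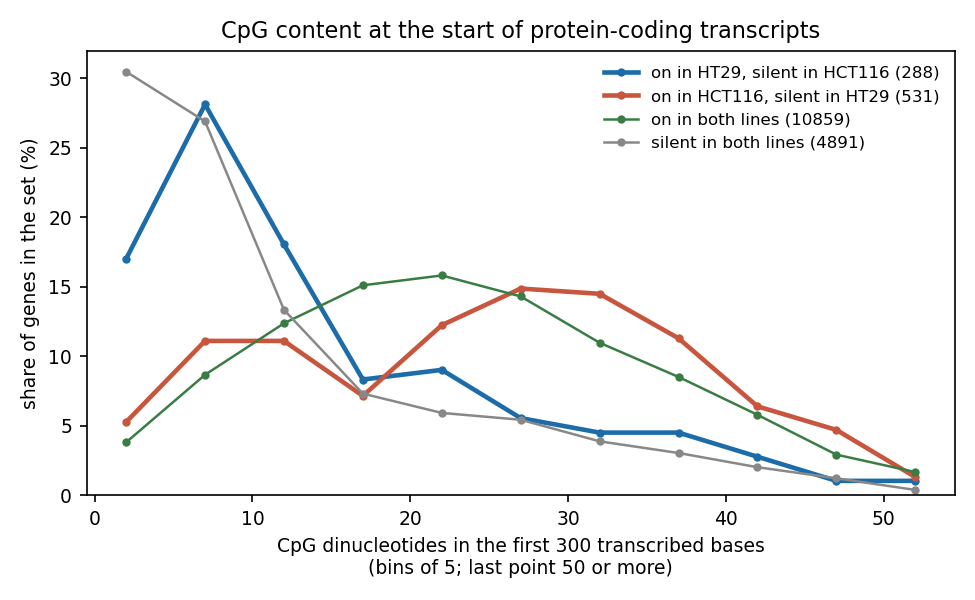
Share of protein-coding genes (vertical, percent of each set) by the number of CpG in the first 300 transcribed bases (horizontal, bins of 5, with 50 or more in the last point). The curve of the HT29 set (blue, median 10) peaks at low counts with that of genes silent in both lines (grey, median 8), and the HCT116 set (red, median 26) lies with genes on in both lines (green, median 23).

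The functional groups followed the same split only in part. Surface and secreted proteins of the stomach and intestine and detoxification genes had a median of 6 CpG each, and innate immune genes 7. The 8 epithelial transcription factors on in HT29 had a median of 32.5, above that of their own set. The FOXQ1 sequence above was CpG-rich too, but it is upstream of the start and not part of this count. In the HCT116 set the developmental transcription factors and the matrix genes had a median of 31 each, growth factors and receptors 33 and genes of excitable membranes 30. Germline genes had 16.5, the protocadherins 23, genes of cell death and sensing 12, the 3 purinergic receptors 8 and the 2 globins 2.5, all below the median of 26 for their set.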

How the data were processed

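The authors deposited whole-number counts of reads for each of 58243 genes and each technical replicate, with no normalization. Per the labels and the study's methods, poly(A) RNA was sequenced as 75 bp single reads on 2 flow cells, trimmed with Trim Galore 0.4.1, aligned with STAR, freed of reads that aligned more than once and counted with HTSeq 0.5.3, over the exons of each gene. The treatment of reads that fall on exons of more than 1 gene is not given in the sources used here. The submitters' notes name hg19 and the methods Ensembl 91, a GRCh38 annotation. The identifiers were matched to GENCODE 29 on GRCh38 (57980 of 58243), which supplied the coordinates and transcripts used here. Technical replicates were summed to 24 libraries, of which 6 make this comparison. For 1 HT29 library grown in 3D, 7 of 8 technical replicates were used and the other was not analysed here. Technical replicates of a library agreed within sampling noise (chi-square per degree of freedom 0.905 to 0.933), and the libraries of a line in 2D did not (2.93 for HT29, 5.94 for HCT116).

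In R 4.3.3 with edgeR 4.0.16, genes passing filterByExpr (19387) were fitted by the robust quasi-likelihood method with TMM scaling over all 24 libraries and 1 coefficient for each of 8 groups of line and growth. P-values were adjusted by Benjamini-Hochberg, and calls needed an adjusted p below 0.05 with a change beyond 1 on the log2 scale. All 960 on and silent genes passed the filter. XIST and genes of chromosome Y were left out of these sets. The fit was tested on simulated counts. Alternatives were the size factors and the test of DESeq2 1.42.0, no filter, other limits, fewer libraries, a replicate block and leaving out each library. Exact Clopper-Pearson intervals at 95% and the floor of 3 counts per library cover counting error only.

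The members, gene lists and functional groups were chosen with earlier results of these data known. Genes were named as the 12 protein-coding genes with the most reads in each set, list members on in one line and silent in the other, up to 3 called list genes in each direction, markers, genes at the limits, neighbouring runs and genes that changed state in 3D. Further genes of the functional groups, and IGFBP4, the integrins and the collagen and laminin chains, were named after their values were seen. Upstream sequences are from RefSeq. That table held 72.6% and 74.0% of the protein-coding genes of the sets, too few for a check over the sets, which was made on GENCODE 29 transcripts instead. Results for some genes are not reported here.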

Additional observations from a re-analysis of the deposited data

Results flagged for a closer look

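Of 231 tested genes considered for naming, 32 passed the edgeR test of the difference between the HT29 to HCT116 contrast in 2D and that in 3D (interaction, adjusted p under 0.05, where 7.76% of all tested genes passed). The values in brackets are that difference on the log2 scale, 2D minus 3D, and 9 of the 32 were on and silent genes. Groups of 3 libraries were not examined for single libraries apart from the rest.

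Outside those sets, the positive values were those of TNC (4.30), KRT13 (4.10), FN1 (3.68), CAV1 (3.31), TGFBI (3.03), DKK1 (2.85), COL17A1 (2.17), ABCC2 (1.95), NT5E (1.78), LAMA3 (1.71), ABCC3 (1.54), ALDH1A3 (1.29), KRT20 (1.18), ITGA6 (1.18), CLDN3 (1.11) and EPHA2 (0.76). The genes with negative values were CYP1A1 (-3.21), CA2 (-2.89), CDX2 (-2.08), NKD1 (-2.05), CYP26B1 (-1.52), HOXB13 (-1.46) and CDKN1A (-1.39). NT5E, which makes adenosine, was higher in HT29 in 2D (log2 fold change 1.36) and had -0.42 in 3D, with mean levels of 82.2 and 32.0 CPM in 2D and 41.8 and 56.0 CPM in 3D in HT29 and HCT116. CDX2 had 1.43 CPM in HT29 in 2D and 6.72 CPM in 3D, with 19.1 and 21.6 CPM in HCT116. TNC, the matrix protein tenascin, fell short of 1 CPM in both lines in 3D, from a mean of 26.6 CPM in HT29 in 2D. CYP1A1, a cytochrome P450 induced through the aryl hydrocarbon receptor, had 1.30 CPM in HT29 in 2D against 11.9 CPM in HCT116, and 24.2 against 25.7 CPM in 3D.

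Among the on and silent genes the values were those of GBP2 (4.88), TM4SF1 (4.41), CYP3A5 (3.76), RAB7B (3.27), ITGB6 (2.92) and FOXQ1 (2.37), all on in HT29, and COL9A2 (-4.76), PPFIA4 (-3.96) and FGFR1 (-3.08), all on in HCT116. The 2D libraries that chose these genes enter the test, the silent line has few or no counts, and a fitted value against 0 counts depends on the prior count, so nothing is read from them.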

How the results depend on the processing

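Counts of called genes ranged from 3621 to 3795 higher in HT29 and from 4045 to 4251 higher in HCT116 when a library was left out (the line then having 2 libraries, with the spread shared over all groups), and no fold limit gave 6333 and 7003. The sets held 368 to 383 and 612 to 652 genes without 1 library each. They held 155 and 271 genes with the on limit at 5 CPM, and 167 and 309 with the silent limit at 0 counts. With the silent limit at 10 counts they held 493 and 884 genes, with technical replicates a to d alone 416 and 705, and without genes that share exons, an alternative chosen after seeing the data, 314 and 550. Depth sets the silent limit, so a silent gene was at most at 3 counts in each library and was not shown to be absent. The number of genes in the same state in 3D was 704, and 857 with the limit at 10 counts. Libraries with equal replicate numbers did not deviate together (r of -0.136, -0.169 and -0.0958 for the 3 numbers over 12087 genes). Genes are not independent of each other, so these correlations cannot decide whether such libraries were handled as pairs. With a replicate block in a fit of the 6 libraries, called genes numbered 3122 and 3602, beside 3111 and 3612 without it. Members called in 3D numbered 960, and 959 under both alternatives, and interaction calls 1504, 1451 and 1415. For the 93 named list results, all 1023 alternative values had the same direction and side of the limit. Of 462 list counts, 449 stayed within 1.5 times the main count, and the other 13 moved further. They were the enteroendocrine calls toward HT29 (4, and 0 or 1), CDK inhibitors toward HT29 (0, and 1 without HT29 replicate 2 or 3 or HCT116 replicate 1), cancer-testis antigens toward HT29 (5, and 2 in the 6 2D libraries) and other cell types toward HCT116 (6, and 3 in those libraries).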
